A study of Mus musculus with 13 samples.

Results

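Wnt feedback inhibitors are genes that are switched on by, or act on, Wnt signalling and that lower it again. The 10 followed here were Notum, Wif1, Nkd1, Axin2, Dkk2, Dkk3, Apcdd1, Rnf43, Znrf3 and Sfrp1, and they were taken by symbol from the 32285 genes counted in the series. All 10 were present in the gene table. Their levels were read from 13 single-cell RNA-seq libraries of mouse colon made with a 10x 3′ kit, 10 from colon tumors (COT1 to COT10) and 3 from adjacent mucosa (Adj1 to Adj3). The mice were C57BL/6J, carried the labelled genotype ApcMin/+; p16cis/cis and were kept on a supplemented diet, in the tumor and the mucosa group alike, so neither the genotype nor the diet was compared. ApcMin is a truncating allele of Apc, the scaffold that helps to destroy β-catenin. The p16cis allele models an age-dependent epimutation, in which promoter methylation controls the activity of the cell-cycle inhibitor p16. Tumors and mucosa came from 3 animals. Mouse A, 24 weeks old, gave 4 tumors (COT5 to COT8) and Adj2, mouse B, 23 weeks old, gave 2 tumors (COT9 and COT10) and Adj3, and mouse C, 20 weeks old, gave 4 tumors (COT1 to COT4) and Adj1. Tumors of 1 mouse share an animal, so p-values over tumors measure the spread between these tumors and may be too small. Mucosa was dissociated with EDTA and TrypLE and tumors with an enzymatic tumor kit, so that tissue and dissociation cannot be told apart. Sex labels, Male or Female, differed within an animal. All 13 libraries had a male pattern, with Xist at 0.0144 to 0.124 CPM and 4 Y-linked genes at a sum of 104 to 130.1 CPM. The label was not used.

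Wnt ligands carry a lipid and bind Frizzled and LRP5/6 at the cell surface. Binding stops the destruction complex, in which Apc and the Axins hold β-catenin for degradation, and β-catenin then enters the nucleus and turns on targets with TCF/LEF factors. In the normal colon this drive is strongest at the crypt base, where stem and progenitor cells divide, and several of the targets are themselves inhibitors that limit the pathway. Notum is a secreted carboxylesterase that removes the lipid from Wnt. Wif1 and Sfrp1 are secreted proteins that bind Wnt, Dkk2 is a secreted ligand of LRP5/6, and Dkk3 is a divergent Dickkopf protein whose role in Wnt signalling is less clear. Apcdd1 is a membrane glycoprotein that acts at the receptor level, and Rnf43 and Znrf3 are membrane E3 ubiquitin ligases that clear Frizzled from the surface. Nkd1 binds Dishevelled, and Axin2 is a scaffold of the destruction complex and a widely used target of the pathway.

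In the GENCODE vM21 annotation of GRCm38, Notum lies at chr11:120653788-120661175 on the minus strand, Wif1 at chr10:121033960-121100650 on the plus strand, Nkd1 at chr8:88521354-88594884 on the plus strand and Axin2 at chr11:108920349-108950783 on the plus strand. Dkk2 lies at chr3:132085292-132180304 on the plus strand, Dkk3 at chr7:112116017-112159057 on the minus strand, Rnf43 at chr11:87662722-87735539 on the plus strand, Znrf3 at chr11:5276324-5444847 on the minus strand and Sfrp1 at chr8:23411502-23449632 on the plus strand. Rnf43 overlaps 1110028F11Rik on its own strand, so reads there may be shared. Notum overlaps the antisense genes Myadml2os and Notumos, and Axin2 overlaps Gm11670. RefSeq promoters on GRCm38.p6 were matched for 5 of the 10 genes. The 250 bases before the start are shown for Axin2, a gene read in normal crypts and raised in tumors, and Dkk2, a gene read almost only in tumors, with CG dinucleotides in capitals.
Axin2: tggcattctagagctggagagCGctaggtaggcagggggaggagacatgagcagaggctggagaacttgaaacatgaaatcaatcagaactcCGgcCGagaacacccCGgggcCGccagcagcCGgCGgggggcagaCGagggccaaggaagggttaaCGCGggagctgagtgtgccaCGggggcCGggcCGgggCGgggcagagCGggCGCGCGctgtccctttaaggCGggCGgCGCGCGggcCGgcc
Dkk2: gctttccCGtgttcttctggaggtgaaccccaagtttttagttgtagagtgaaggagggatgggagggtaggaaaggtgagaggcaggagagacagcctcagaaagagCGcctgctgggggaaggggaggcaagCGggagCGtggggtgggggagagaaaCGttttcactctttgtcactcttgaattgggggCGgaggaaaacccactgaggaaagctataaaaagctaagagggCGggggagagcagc
The Axin2 window is chr11:108920099-108920348 and holds 24 CG, more than 88.0% of the 32851 promoter windows of the table. The Dkk2 window is chr3:132085042-132085291 and holds 7 CG, more than 53.7% of windows, against a median of 6. The TCF/LEF words CTTTGAA or CTTTGAT, and likewise CTTTGTA or CTTTGTT, searched on both strands, were found in 0 of the 6 windows of the 5 matched genes, while 14.8% of all windows hold at least 1. No match says only that these letters are not in these 250 bases.

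After filtering, 108495 of 137591 barcodes were kept, 85953 from tumors and 22542 from mucosa. Libraries held from 57221300 to 93157039 UMIs in tumors and from 84883382 to 116133079 in mucosa, and the median UMIs per cell were 3587 to 4993 in tumors and 7210 to 9558 in mucosa. Any pair of libraries shared at most 61 barcodes, 0.561% of the smaller library. Cells were clustered without the 10 genes and without other Wnt pathway genes (91 genes held out in all), and clusters were named "-like" from marker lists. Tumor epithelium stands below for 2 clusters, one named tumor epithelial-like (5724 cells, led by Mt4, Ptn, Mt3 and Mgp) and one left unnamed (7509 cells, led by Gm26917, Onecut2 and Sox4) with more than 80% of its cells from tumors. The unnamed epithelial cluster was counted in by that share, since its markers gave it no class. The clusters were drawn on the same cells in which the genes were then compared, and although held out, Wif1 and Nkd1 ranked among the leading genes of the first and Rnf43 and Axin2 among those of the second. Tumors held 13206 cells of tumor epithelium (15.4% of their cells), 4346 other epithelial cells (5.06%), 65608 immune cells (76.3%) and 325 fibroblast-, mural- and endothelial-like cells (0.378%). Mucosa held 15226 other epithelial cells (67.5%), 6680 immune cells (29.6%), 27 cells of tumor epithelium and 8 fibroblast-like cells. Levels are given in CPM, the UMIs of a gene per 1000000 UMIs of the cells named. Fold changes come from edgeR on UMIs summed per library and use TMM scaling, so they can differ from ratios of CPM. The gap was not always slight. Over all epithelial cells Rnf43 averaged 99.8 CPM in tumors and 16.1 CPM in mucosa, with a fitted log2 fold change of 2.37. Overlap between groups was read from CPM, before that scaling. The gap was wider in rare classes with few UMIs. In tuft-like cells of mucosa Znrf3 averaged 7.62 CPM against 4.19 CPM in other epithelium, with a fitted log2 fold change of −0.02.

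Of the 10 inhibitors, 9 were read in tumors mainly from the tumor epithelium, and Sfrp1 was read there from fibroblast-like cells. In tumors, the tumor epithelium gave 97.1% of the UMIs of Notum, 96.4% of those of Wif1, 97.4% for Nkd1, 94.2% for Axin2 and 96.7% for Dkk2. It gave 91.5% for Dkk3, 96.8% for Apcdd1, 90.0% for Rnf43 and 82.8% for Znrf3, of which immune cells gave another 11.6%. Sfrp1 was the exception, with 1.05% of its UMIs from tumor epithelium and 95.4% from the fibroblast-, mural- and endothelial-like cells, which were 0.378% of the cells.

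**Figure D1:**
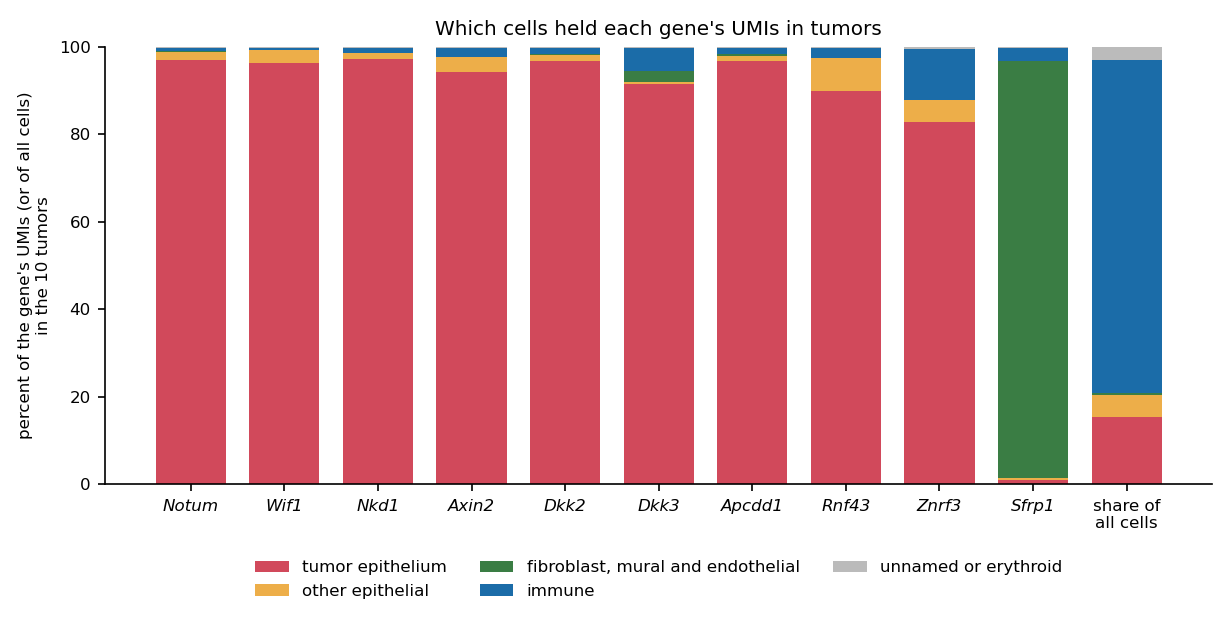
Share of each gene's UMIs in the 10 tumor libraries by compartment, in percent (stacked bars, UMIs pooled over libraries), with the share of all cells in the last bar. Tumor epithelium holds 82.8% to 97.4% of the UMIs of 9 genes and 1.05% of those of Sfrp1.

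**Figure D2:**
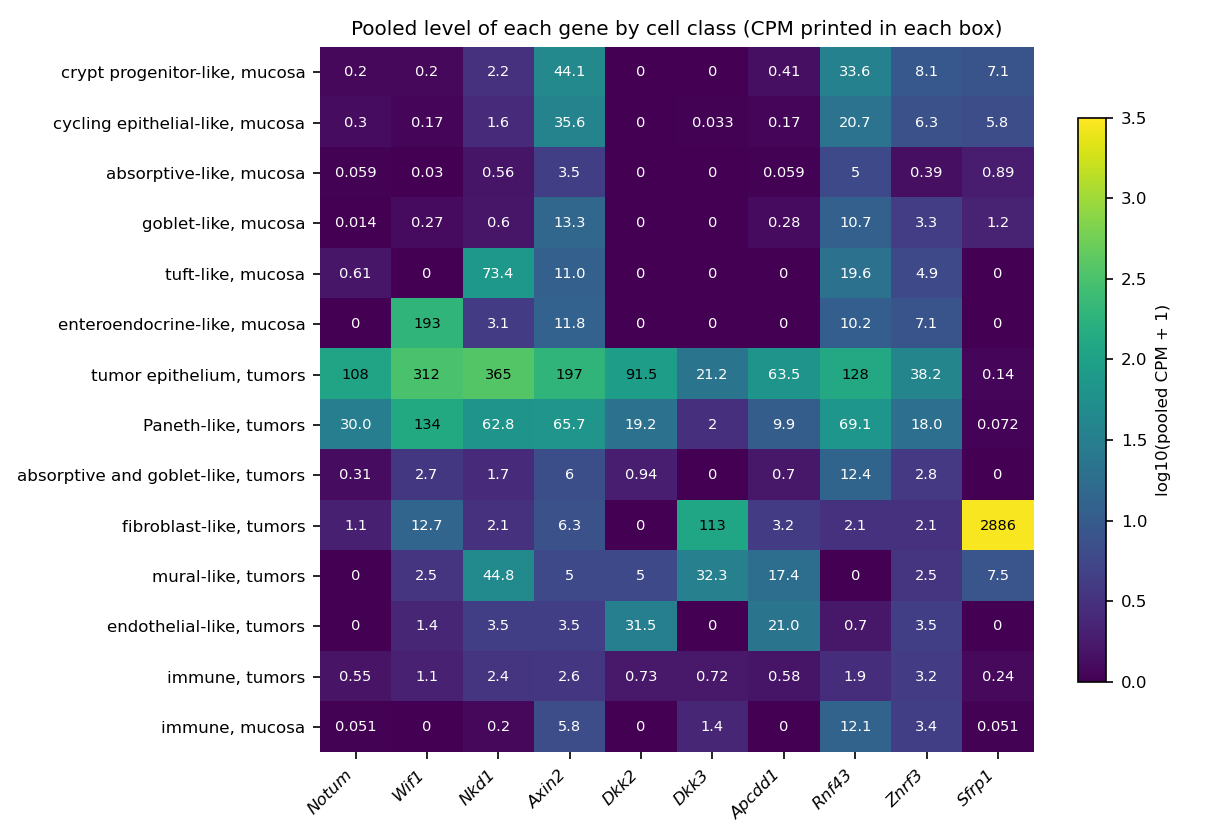
Pooled level of each gene in 14 combinations of cell class and tissue; each box prints CPM and its colour follows log10(CPM + 1). Of the 9 genes read mainly from the tumor epithelium, 8 have their highest colours there and Dkk3 has its highest in fibroblast-like cells, Nkd1 is also high in tuft-like and Wif1 in enteroendocrine-like cells of the mucosa, and Sfrp1 stands at 2886 CPM in fibroblast-like cells of tumors.

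Whether epithelial cells of tumors and of mucosa differed in these genes was asked first over all epithelial cells, 17552 in tumors and 15253 in mucosa. Of the 10 inhibitors, 9 were higher in tumors and 1, Sfrp1, was lower. Among the 15515 genes tested, 33.7% were higher and 30.1% lower, so a call by itself was common. The members had a median log2 fold change of 6.99, beside 0.04 over all genes tested. The 10 genes were chosen with earlier results of these data known. Here and in the comparisons below, setting them beside all genes is therefore no test of the list. The values of tumors and mucosa overlapped for 0 of the 10; among all genes tested, 33% lay wholly higher in tumors and 12.8% wholly lower.

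Of the secreted inhibitors, Notum ranged from 20.9 to 115 CPM in the 10 tumors with a median of 89.4, and stood at 0.118, 0.163 and 0.171 CPM in the 3 mucosa libraries. The lowest tumor was thus far above the highest mucosa library. Its log2 fold change was 8.73 ± 0.551 (SE; edgeR adjusted p = 9.14e-08). The ratio of pooled UMIs was 523-fold (95% exact interval 373 to 760.4, counting error only). Wif1 ranged from 49.1 to 346 CPM in tumors, with a median of 264, against 1.15, 1.57 and 1.596 CPM in mucosa, a log2 fold change of 7.07 ± 0.596 (edgeR adjusted p = 7.49e-07). Dkk2 was close to a switch in these cells. It ranged from 32.6 to 96.2 CPM with a median of 69.4 in tumors, and 19742 of its UMIs were counted there, whereas mucosa gave 0, 0 and 0.0251 CPM from 2 UMIs. Both UMIs came from Adj3, from 6.67% of its 15 cells in the unnamed cluster of the tumor epithelium. The other mucosal epithelium had 0. With so few UMIs in mucosa the fitted fold is no bound, and the pooled ratio was 7272-fold with an exact interval from 2013 to 60048 (edgeR adjusted p = 6.03e-08). Dkk3 was lower in level but had the same shape, with 3.24 to 30.8 CPM in tumors (median 15.4) against 0, 0 and 0.0264 CPM in mucosa, again from 2 UMIs. Its pooled ratio was 1667-fold (461 to 13770), with an edgeR adjusted p of 6.77e-06.

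Sfrp1 went the other way. The 10 tumors ranged from 0 to 0.446 CPM with a median of 0.106, and the mucosa libraries stood at 0.979, 4.09 and 4.67 CPM. Every mucosa library was above every tumor, and the log2 fold change was −4.89 ± 0.577 (edgeR adjusted p = 1.04e-05), a pooled ratio of 27.1-fold lower in tumors (19.5 to 38.9). The lowest mucosa value was that of mouse C.

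Among the membrane inhibitors, Apcdd1 showed the largest difference, with 14.6 to 92.4 CPM in tumors (median 38.9) against 0.0844, 0.289 and 0.369 CPM in mucosa. Its log2 fold change was 7.24 ± 0.784 (edgeR adjusted p = 5.16e-06). Rnf43 and Znrf3, the paired ubiquitin ligases, were already read in mucosa and rose by less. Rnf43 ranged from 50.0 to 137 CPM (median 100.3) in tumors, against 14.4, 16.7 and 17.2 CPM, a log2 fold change of 2.37 ± 0.221 (edgeR adjusted p = 1.65e-06). Znrf3 ranged from 11.1 to 40.2 CPM (median 31.4), against 3.94, 4.31 and 4.41 CPM, a log2 fold change of 2.54 ± 0.318 (edgeR adjusted p = 1.67e-05).

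The 2 intracellular inhibitors differed in the same way. Nkd1 ranged from 66.3 to 359 CPM in tumors (median 309) against 1.37, 1.70 and 2.55 CPM in mucosa, a log2 fold change of 6.91 ± 0.561 (edgeR adjusted p = 5.86e-07). Axin2 ranged from 68.1 to 186 CPM (median 155) against 17.97, 19.6 and 24.3 CPM, a log2 fold change of 2.57 ± 0.252 (edgeR adjusted p = 2.3e-06). Axin2, Rnf43 and Znrf3 thus had folds of 2.37 to 2.57 on the log2 scale, whereas Notum, Wif1, Nkd1 and Apcdd1 had folds of 6.91 to 8.73.

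**Figure D3:**
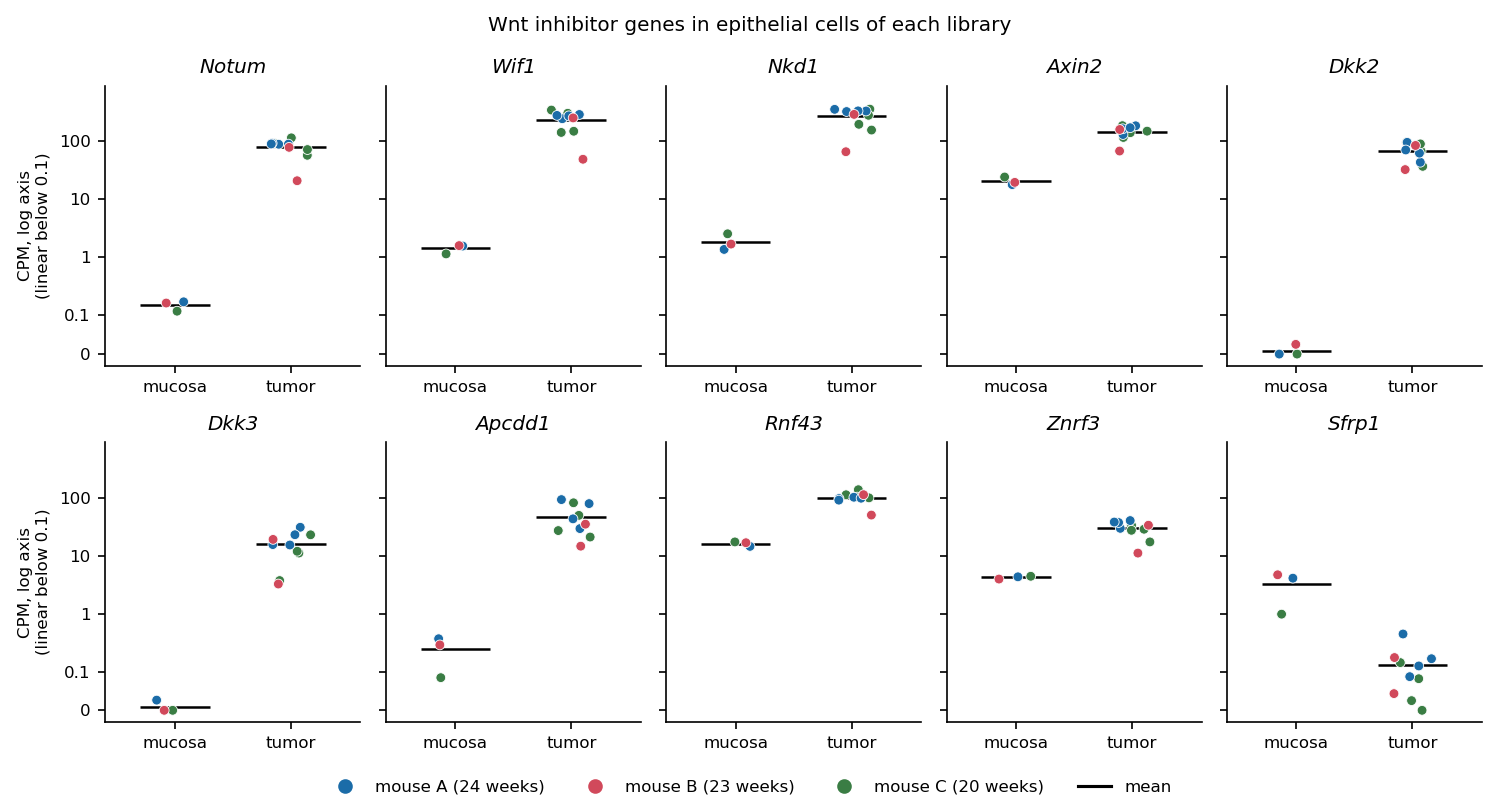
Level of each gene in all epithelial cells of each library (CPM, axis linear near 0 and logarithmic above), for 10 tumors and 3 mucosa libraries, with points coloured by mouse and a black line at the mean. In this plot 9 genes lie higher in every tumor than in every mucosa library and Sfrp1 lies lower, and COT10 is the lowest tumor for those 9.

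Within each animal the direction was the same. Notum averaged 90.5 CPM in the 4 tumors of mouse A against 0.171 CPM in its mucosa, 49.9 CPM in the 2 tumors of mouse B against 0.163 CPM, and 83.9 CPM in the 4 tumors of mouse C against 0.118 CPM. Axin2 averaged 163, 114 and 149 CPM in tumors of mice A, B and C, against 17.97, 19.6 and 24.3 CPM in their mucosa. Sfrp1 averaged 0.206, 0.109 and 0.062 CPM in tumors of the 3 mice, against 4.09, 4.67 and 0.979 CPM. Each mouse has 1 mucosa library, so no test was made within a mouse.

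Markers of dissociation stress and of other cell types moved with this comparison. The summed level of 15 stress genes was 2670 to 5957 CPM in tumor epithelial cells and 1454 to 1659 CPM in mucosa, and 13 of the 15 were higher in tumors. The 7 neutrophil markers summed to 114 to 509 CPM in tumors and 6.72 to 18.2 CPM in mucosa, and the 7 general immune markers to 23.9 to 59.4 against 12.2 to 12.8 CPM. Paneth markers summed to 722 to 5659 CPM in tumors and 5.93 to 32.4 CPM in mucosa, and mural markers to 7.86 to 44.4 against 1.99 to 2.36 CPM. Endothelial markers summed to 5.57 to 27.1 against 3.11 to 3.92 CPM, while enteroendocrine markers, at 22.8 to 674 against 454 to 606 CPM, tuft markers and fibroblast markers overlapped. Their part in the differences of the inhibitors was not tested.

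When all cells of a library were summed regardless of class, 9 of the inhibitors were again higher in tumors, where 36.2% of 17543 genes were. Sfrp1 was not called. It ranged from 0.116 to 26.7 CPM over the tumors (median 1.05) against 0.837, 3.87 and 4.29 CPM in mucosa, the groups overlapped, and its log2 fold change was 0.51 ± 1.25 (edgeR adjusted p = 0.732). Without COT5, the tumor with the most fibroblast-like cells, it was −0.69. The share of cells of each kind and the level within them cannot be told apart in such sums.

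Of the 15253 mucosal epithelial cells 7395 were absorptive- and goblet-like, which are mature cells. The tumor epithelium was therefore also set against the crypt progenitor-like and cycling cells of the mucosa, 13206 against 4856 cells. The same 9 genes were higher and Sfrp1 was lower, where 37.7% of 14885 genes were higher and 31.2% lower. The values of tumors and mucosa overlapped for 0 of the 10, where 35.2% of genes lay wholly higher in tumors and 16.8% wholly lower. The median log2 fold change was 7.31 over the members and 0.10 over all genes tested. Among the genes with more than 3 UMIs in the crypt cells, which leaves out Dkk2 and Dkk3, Wif1 was the gene whose difference grew most against this base. It ranged from 101 to 439 CPM in tumors (median 312) and stood at 0.0656, 0.215 and 0.323 CPM in the crypt cells, from 14 UMIs, a pooled ratio of 1647-fold (981 to 3012; edgeR adjusted p = 1.48e-08). Dkk2 was not read at all in the crypt cells. It ranged from 51.3 to 146 CPM in tumor epithelium (median 92.3), from 19428 UMIs, against 0, 0 and 0 CPM, and was at least 2253-fold higher when the mucosa group is given 3 UMIs (edgeR adjusted p = 2.8e-08). Dkk3 ranged from 5.58 to 36.3 CPM (median 20.6) against 0, 0 and 0.0403 CPM, a single UMI (edgeR adjusted p = 1.76e-06).

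Axin2, Rnf43 and Znrf3, which were read in the crypt cells, showed smaller differences than the other genes. Axin2 ranged from 132 to 218 CPM in tumor epithelium (median 196) against 36.4, 37.8 and 51.5 CPM, a log2 fold change of 1.98 ± 0.165 (edgeR adjusted p = 1.92e-07). Rnf43 ranged from 86.7 to 155 CPM (median 128) against 26.2, 27.7 and 32.4 CPM, a log2 fold change of 1.91 ± 0.16 (edgeR adjusted p = 2.02e-07). Znrf3 ranged from 19.2 to 49.0 CPM (median 38.1) against 6.92, 7.53 and 7.82 CPM, a log2 fold change of 2.11 ± 0.249 (edgeR adjusted p = 5.08e-06). For these 3 the lowest tumor was still above the highest mucosa library. Notum had a log2 fold change of 8.50 ± 0.439, Nkd1 of 7.22 ± 0.462 and Apcdd1 of 7.41 ± 0.714 in this comparison, with edgeR adjusted p of 2.53e-09, 1.86e-08 and 7.9e-07. Sfrp1 ranged from 0 to 0.414 CPM in tumor epithelium (median 0.119) against 2.15, 7.99 and 8.06 CPM in the crypt cells, a log2 fold change of −5.59 ± 0.557 (edgeR adjusted p = 1.09e-06). In this comparison the stress genes summed to 2917 to 6691 CPM in tumor epithelium and 1026 to 1339 CPM in crypt cells, with 14 of 15 higher, and neutrophil markers to 67.3 to 433 against 0.161 to 1.81 CPM. Paneth markers summed to 100.4 to 331 against 0.377 to 1.29 CPM and mural markers to 12.9 to 62.8 against 2.42 to 2.98 CPM. Tuft markers summed to 57.1 to 126 against 4.85 to 27.8 CPM, general immune markers to 23.6 to 60.8 against 4.63 to 8.82 CPM and endothelial markers to 9.01 to 31.0 against 5.16 to 7.11 CPM, while enteroendocrine markers overlapped. The part of these markers was not tested. For scale, tuft markers summed to 4550 to 5490 CPM in the tuft-like cells of mucosa. Fibroblast markers also lay higher in tumor epithelium, at 0.326 to 9.90 CPM against 0 to 0.131 CPM in the crypt cells, and their part was not tested.

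Inside the tumors, tumor epithelium was compared with the absorptive- and goblet-like cells of the same libraries, dissociated together, in the 9 tumors that held enough of both. All 9 genes that could be tested were higher in the tumor epithelium, each in 9 of 9 libraries, where 36.1% of 11826 genes were higher. The median log2 fold change over them was 6.30, against 0.12 over all genes tested. Axin2 averaged 194 ± 28.5 CPM (SD, n = 9) in tumor epithelium and 6.80 ± 4.94 CPM in absorptive- and goblet-like cells, a log2 fold change of 4.53 ± 0.216 (edgeR adjusted p = 2.43e-10). Rnf43 averaged 126 ± 19.8 and 12.7 ± 3.74 CPM, with the smallest difference of the 9, 2.91 ± 0.119 (edgeR adjusted p = 6.44e-11). Notum averaged 107 ± 29.5 and 0.529 ± 0.633 CPM (log2 fold change 7.92 ± 0.308; edgeR adjusted p = 3.73e-11), and Nkd1 359 ± 119 and 2.32 ± 3.07 CPM (7.20 ± 0.278; edgeR adjusted p = 3.51e-11). Dkk3 had 4062 UMIs in the tumor epithelium and 0 in the mature cells, at least 88.1-fold more when the latter are given 3 UMIs. Sfrp1 had 26 UMIs against 0 and was not tested. Of the 15 stress genes, 4 were higher and 6 lower in tumor epithelium here, where 36.1% of genes were higher and 30.6% lower. Over all 10 tumors, tuft markers summed to 57.1 to 126 CPM in tumor epithelium and 0 to 17.1 CPM in absorptive- and goblet-like cells, mural markers to 12.9 to 62.8 against 0 to 5.15 CPM and endothelial markers to 9.01 to 31.0 against 0 to 4.37 CPM. Enteroendocrine markers overlapped, with medians of 139 and 9.00 CPM, and neutrophil, general immune, fibroblast and Paneth markers overlapped as well. The part of these markers was not tested.

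**Figure D4:**
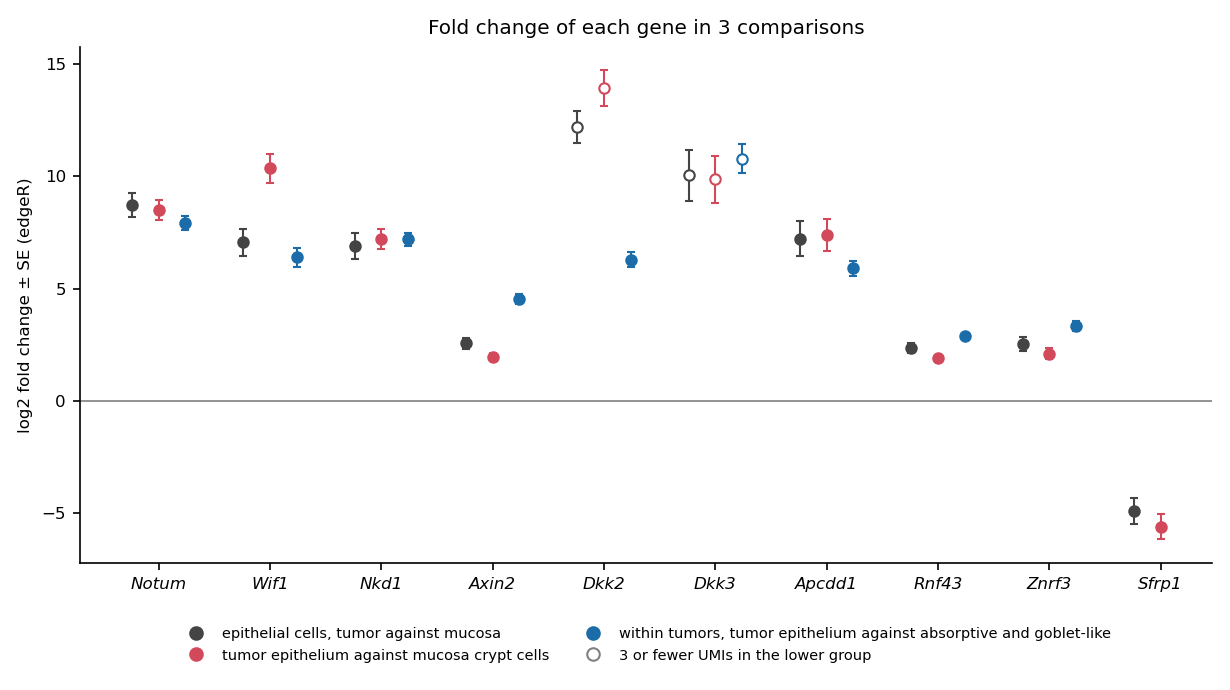
Log2 fold change with its SE from edgeR for each gene in 3 comparisons: all epithelial cells of tumors against mucosa, tumor epithelium against crypt progenitor-like and cycling cells of mucosa, and tumor epithelium against absorptive- and goblet-like cells within tumors. Open symbols mark genes with 3 or fewer UMIs in the lower group, whose fitted fold is no bound; Axin2, Rnf43 and Znrf3 lie between 1.91 and 4.53, and Sfrp1 lies below 0 between tissues.

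With the tumor epithelium left out of both tissues, the remaining 4346 epithelial cells of tumors still differed from the 15226 of mucosa in part of the list. Of the 10 genes 9 were tested, all but Dkk3. Of these, 6 stayed higher and 1 lower, where 19.9% of 13029 genes were higher and 19.8% lower. The higher genes had log2 fold changes of 5.76 for Notum, 4.36 for Wif1, 3.02 for Nkd1, 3.39 for Apcdd1 and 0.83 for Rnf43. Dkk2 had 314 UMIs in these cells of tumors and 0 in those of mucosa and is given no fold. Sfrp1 stayed lower at −5.12. Axin2 had a log2 fold change of −0.06 (edgeR adjusted p = 0.895) and Znrf3 of 0.63 (edgeR adjusted p = 0.112). These remaining cells include Paneth-like cells, of which tumors held 844 and mucosa 21. In tumors the Paneth-like cells gave 419 of the 443 remaining UMIs of Notum, 1866 of 1931 for Wif1 and 877 of 970 for Nkd1. They gave 268 of 314 for Dkk2, 138 of 166 for Apcdd1, 964 of 2239 for Rnf43, 917 of 1521 for Axin2 and 251 of 496 for Znrf3. The folds without Paneth-like cells were not tested.

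Paneth-like cells, led by lysozyme and other Paneth markers, numbered 844 in the 10 tumors (26 to 237 a library). All 9 genes that could be tested were lower in them than in the tumor epithelium, where 28% of 12092 genes were lower, while the means of all 9 lay above those of the absorptive- and goblet-like cells, a difference that was not tested. Notum averaged 26.5 ± 9.62 CPM in Paneth-like cells against 105 ± 28.3 CPM in tumor epithelium (SD, n = 10), a log2 fold change of −1.67 ± 0.113 (edgeR adjusted p = 7.57e-10). Wif1 averaged 117 ± 59.4 CPM against 303 ± 107 CPM (−1.14 ± 0.177; edgeR adjusted p = 2.73e-05). Rnf43 and Znrf3 had the smallest differences, both −0.74 on the log2 scale, at 65.1 ± 14.1 and 19.0 ± 5.39 CPM in Paneth-like cells (edgeR adjusted p = 2.57e-08 and 1.89e-05). Dkk3 had the largest, 2.40 ± 2.30 CPM against 20.3 ± 9.76 CPM (−2.85 ± 0.226; edgeR adjusted p = 6.04e-09).

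The tumor epithelium was not uniform in these genes. A finer clustering, made separately, placed 13145 of its 13206 cells in 5 sub-clusters. These were led by Mt4 (4272 tumor cells), Onecut2 (3756), Gm26917 (3271), Cxcl5 (1579) and Top2a (719, a cycling group), and of their 13597 cells 452 lay outside the tumor epithelium as defined above, most of them Onecut2-led. The Onecut2- and Gm26917-led cells were shallow, with library medians of 3802 to 7677 and 3499 to 7834 UMIs a cell, against 16480 to 24805 in the Mt4-led and 16263 to 27094 in the Cxcl5-led cells. Both shallow sub-clusters scored highest on the crypt progenitor list, with mean log2 folds over all other cells of 1.37 and 1.05. Their scores on the tumor epithelial list were 0.72 and 0.88. Lars2 and mt-Atp8 were among the leading genes of the Onecut2-led cells and Rmrp of the Gm26917-led cells. The part of these features was not tested. The Mt4-led cells had the highest mean of Notum (158 ± 28.0 CPM), Wif1 (524 ± 151), Nkd1 (562 ± 116), Dkk3 (36.0 ± 13.8) and Apcdd1 (109 ± 46.3). Axin2 and Rnf43 had another order: Axin2 averaged 271 ± 54.0 and 260 ± 35.4 CPM in the Gm26917- and Onecut2-led cells against 208 ± 19.1 CPM in the Mt4-led cells, and Rnf43 198 ± 43.8 and 214 ± 59.4 against 113 ± 14.3 CPM. Dkk2 was highest in the Gm26917-led cells, at 124 ± 28.6 CPM against 101 ± 43.9 CPM in the Mt4-led cells. These orders among shallow and deep cells were not tested.

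The Cxcl5-led cells, whose leading genes also included Krt36, Sprr2b, F3 and Clu, had a depth like that of the Mt4-led cells and were compared with them in all 10 tumors. Of 9 tested inhibitors, 8 were lower in the Cxcl5-led cells, where 28.4% of 11634 genes were lower. Apcdd1 averaged 2.76 ± 1.91 CPM against 109 ± 46.3 CPM (log2 fold change −4.87 ± 0.245; edgeR adjusted p = 1.64e-09) and Dkk3 0.514 ± 0.856 against 36.0 ± 13.8 CPM (−6.30 ± 0.3; edgeR adjusted p = 1e-09). Wif1 averaged 33.6 ± 14.5 against 524 ± 151 CPM (−3.90 ± 0.149; edgeR adjusted p = 2.14e-10) and Nkd1 50.8 ± 26.4 against 562 ± 116 CPM (−3.49 ± 0.202; edgeR adjusted p = 5.64e-09). The groups did not overlap for 7 of the 9 tested genes, these 4 and Notum, Axin2 and Znrf3, where 5.72% of all genes lay wholly lower. Axin2 and Rnf43 were lower by less, −1.13 ± 0.119 and −0.56 ± 0.0897 (edgeR adjusted p = 1.87e-06 and 0.00011). Dkk2 was the exception. It averaged 84.7 ± 19.3 CPM in Cxcl5-led and 101 ± 43.9 CPM in Mt4-led cells, was higher in the Cxcl5-led cells in 4 of 10 tumors, and had a log2 fold change of −0.10 ± 0.21 (edgeR adjusted p = 0.725). Since sub-clusters were drawn on the same cells, p-values between them are too small.

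**Figure D5:**
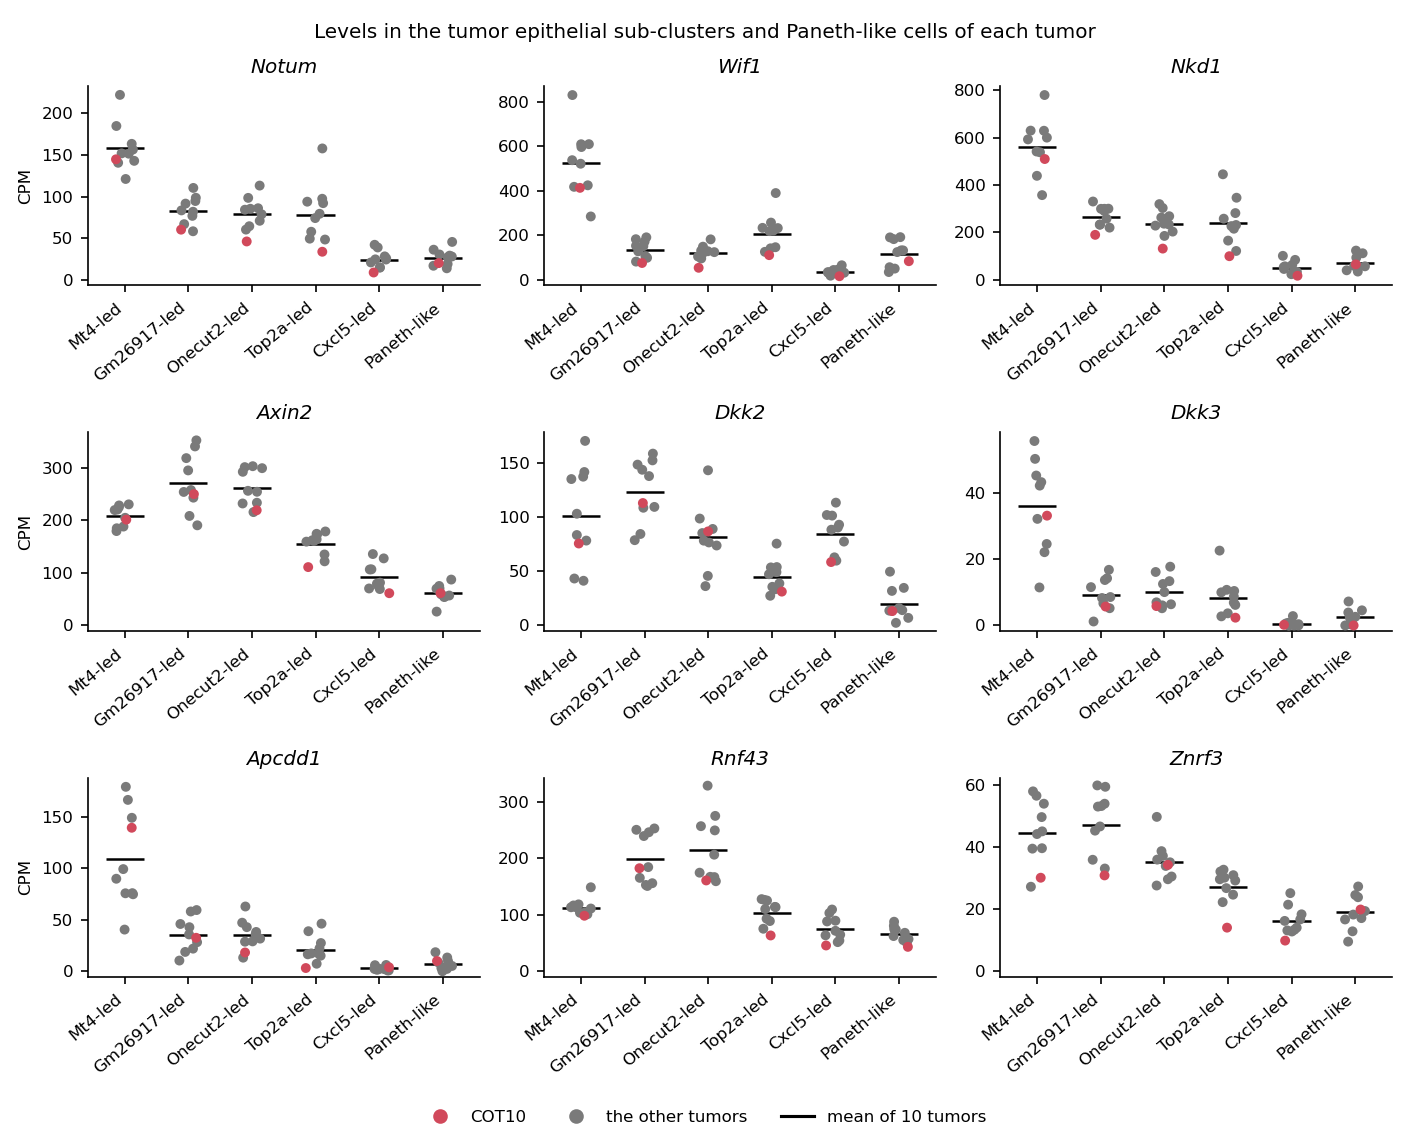
Level of 9 genes (CPM) in each of the 10 tumors, in the sub-clusters led by Mt4, Gm26917, Onecut2, Top2a and Cxcl5 and in Paneth-like cells, with COT10 in red. Mt4-led cells are highest for Notum, Wif1, Nkd1, Dkk3 and Apcdd1, and Dkk2 averages 84.7 CPM in Cxcl5-led and 101 CPM in Mt4-led cells.

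A single tumor, COT10, of mouse B, was the lowest of the 10 tumors for 9 of the 10 genes over all epithelial cells, all but Sfrp1. Its Notum was 20.9 CPM where the next tumor had 57.5 CPM, and its Rnf43 50.0 CPM where the next had 90.5 CPM. In the tumor epithelium alone COT10 was lowest for 6 of the 10. Within sub-clusters it was alone lowest for 8 of the 10 in the Top2a-led cells, 7 in the Cxcl5-led, 3 in the Onecut2-led, 3 in the Gm26917-led and 1, Rnf43, in the Mt4-led cells. Of the cells of its 5 sub-clusters 9.36% were Mt4-led, the least of the 10 tumors (mean 30.2 ± 10.1%), and 27.9% were Cxcl5-led, against a median of 9.59% over the tumors and 28.1% in COT2. Tumor epithelium made up 634 of the 1221 epithelial cells of COT10, the smallest part among the 10 tumors, beside 1556 of 2291 in COT2, the next. The part of these features of its make-up in its low levels was not tested. At the other end, COT1 was highest over all epithelial cells for Notum, Wif1, Nkd1, Axin2, Dkk2 and Rnf43. Tumors varied least in Axin2 and Rnf43 within tumor epithelium, with coefficients of variation of 14.1% and 14.9%, and most, leaving aside Sfrp1, in Apcdd1, with 53.3%.

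In the mucosa, the inhibitors were spread over different cell types. Axin2 averaged 44.6 ± 9.6 CPM in crypt progenitor-like cells (SD, n = 3), 36.6 ± 4.1 in cycling epithelial cells, 13.3 ± 1.2 in goblet-like cells and 3.73 ± 0.60 in absorptive cells. Rnf43 followed the same order with 33.6 ± 1.3, 21.8 ± 4.0, 10.7 ± 0.44 and 5.01 ± 0.33 CPM, and so did Znrf3 with means of 8.13, 6.51, 3.26 and 0.281 CPM and Sfrp1 with 6.86, 5.02, 1.31 and 0.738 CPM. The crypt progenitor-like and cycling cells differed by less than their spread for Axin2 and Sfrp1. For Axin2 and Rnf43, goblet-like and absorptive cells were more than their spread apart. Notum, Dkk2 and Dkk3 averaged under 1 CPM in each of these 4 classes.

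In rare cell types 2 of the genes stood high. Of the UMIs in mucosal epithelial cells, enteroendocrine-like cells held 245 of 314 for Wif1, and tuft-like cells held 120 of 390 for Nkd1, so most of the Nkd1 lay outside the tuft-like cells. Tuft-like cells, chemosensory cells of the epithelium (196 cells in the 3 mucosa libraries), had Nkd1 at 68.1, 70.2 and 97.6 CPM, against 1.09, 1.26 and 1.41 CPM in the other epithelial cells. The difference was 5.61 ± 0.332 on the log2 scale (edgeR adjusted p = 3.84e-24), and the pooled ratio 58.4-fold (46.6 to 72.7). Nkd1 was the only inhibitor called higher in tuft-like cells, among 5 tested, where 15.1% of 13018 genes were higher. Of the 7 immune markers, Ptprc and Rac2 were also high in the tuft-like cells, at 154.8 to 184 and 143 to 386 CPM against 0.692 to 1.69 and 0.744 to 1.56 CPM in the other epithelium, while the other 5 reached at most 13.9 CPM. Tyrobp and Cd53 were at 0 in 2 of the 3 libraries. Endothelial markers summed to 32.8 to 41.8 CPM, against 3.11 to 3.92 CPM in all mucosal epithelium, while Paneth, neutrophil, fibroblast and enteroendocrine markers lay lower. Of the 15 stress genes 0 were higher and 6 lower, where 23.7% of genes were lower. The part of these genes was not tested. In the tumors only 14 tuft-like cells were found, with 6 UMIs of Nkd1, 58.1 CPM (exact 95% interval 21.3 to 127).

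Enteroendocrine-like cells, the hormone-secreting cells (255 in mucosa), had Wif1 at 167, 186 and 217 CPM, against 0.225, 0.318 and 0.413 CPM in the other epithelial cells. The difference was 8.68 ± 0.232 on the log2 scale (edgeR adjusted p = 4.15e-20), a pooled ratio of 590-fold (450 to 783). Wif1 was the only inhibitor called higher among 6 tested, where 19.5% of 13370 genes were higher. The 15 stress genes summed to 2974 to 3648 CPM in the enteroendocrine-like cells, against 1454 to 1659 CPM in all mucosal epithelium, with 7 higher and 0 lower. Endothelial markers summed to 21.1 to 72.9 against 3.11 to 3.92 CPM and general immune markers to 14.8 to 69.9 against 12.2 to 12.8 CPM. Paneth, neutrophil, fibroblast and epithelial markers lay lower in the enteroendocrine-like cells. The part of these genes was not tested. After each cell was thinned to 2000 UMIs, Wif1 was read in 22.7% of 203 enteroendocrine-like cells (31.8% before thinning) and in 0 of 189 tuft-like cells, a count that limits the share of cells with a UMI at this depth to 1.59%, not the share that express the gene. Nkd1 was read in 12.2% of those tuft-like cells (42.3% before thinning) and in 0.493% of the enteroendocrine-like cells. Median depth before thinning was 8395 UMIs in the tuft-like and 4087 in the enteroendocrine-like cells. In the immune cells of mucosa, thinned alike, both genes were read in 0 of 3500 cells (a limit of 0.0857% for cells with a UMI), and in those of tumors Wif1 was read in 0.218% and Nkd1 in 0.520% of cells. Nkd1 in enteroendocrine-like cells rested on 4 UMIs, at 2.11, 3.04 and 4.26 CPM, above the 1.09 to 1.41 CPM of the other epithelium, but was not called (log2 fold change 0.80 ± 0.898; edgeR adjusted p = 0.496).

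Lower levels were also called in these rare cells. In tuft-like cells 2 of the 5 tested genes were lower, where 23.7% of genes were. Axin2 stood at 0, 0 and 16.4 CPM, with all of its 18 UMIs from Adj1, a log2 fold change of −1.45 ± 0.368 (edgeR adjusted p = 0.000915), and Sfrp1 had 0 UMIs, which allows up to 1.83 CPM (edgeR adjusted p = 0.0306). In enteroendocrine-like cells Axin2, Rnf43 and Sfrp1 were lower, where 26.5% of genes were, with log2 fold changes of −1.31 ± 0.37 for Axin2 and −1.16 ± 0.399 for Rnf43 (edgeR adjusted p = 0.00523 and 0.0201). Sfrp1 again had 0 UMIs, which allows up to 2.36 CPM (edgeR adjusted p = 0.0126). These calls rest on few UMIs. In tuft-like cells Axin2 kept its call without any 1 library (edgeR adjusted p at most 0.00964), but without Adj1 no UMI was left and the fold has no estimate, and the call was lost without the library block (edgeR adjusted p = 0.0932). The call of Sfrp1 was lost without any 1 of the 3 libraries (edgeR adjusted p = 0.0908 to 0.172). In enteroendocrine-like cells those of Rnf43 and Sfrp1 were lost without Adj2 and all 3 without Adj3 (for Axin2, edgeR adjusted p = 0.0797). The fold of Axin2 was −2.09 without Adj2 and that of Rnf43 −1.82 without Adj1.

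Stromal cells were scarce but gave the tumors most of their Sfrp1. Fibroblast-like cells numbered 78 over 9 tumors, 50 of them in COT5. Their pooled Sfrp1 was 2886 CPM (exact interval 2779 to 2997), from 2734 UMIs, of which 1770 came from COT5. In the 4 tumors with at least 5 such cells, Sfrp1 stood at 1328 CPM in COT2, 2534 CPM in COT5, 3045 CPM in COT1 and 4901 CPM in COT9, against a mean of 0.191 CPM in the epithelial cells of the same tumors. All 4 libraries were far above their epithelium, with a log2 fold change of 13.7 ± 0.694 (edgeR adjusted p = 1.44e-84). Of the 10 inhibitors, 2 were higher in fibroblast-like cells and 8 lower, where 14.1% of 12875 genes were higher and 19.8% lower. Of the 15 stress genes 5 were higher and 2 lower there, and their part was not tested.

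Dkk3 was the second gene higher in fibroblast-like cells. It stood at 96.7 to 147 CPM in the 4 tumors, against 3.72 to 30.8 CPM in their epithelium, a log2 fold change of 2.58 ± 0.387 (edgeR adjusted p = 3.91e-10). Its pooled UMIs were 107, of which 76 came from COT5. Mural markers summed to 366 to 2706 CPM in the fibroblast-like cells of these 4 tumors, against 7.86 to 44.4 CPM in the epithelial cells of the 10 tumors, and their part was not tested. Mural-like cells, the contractile cells of vessels (54 cells), had Dkk3 at 32.3 CPM (17.2 to 55.3) and Nkd1 at 44.8 CPM (26.5 to 70.7). Endothelial-like cells (193 cells) had Dkk2 at 31.5 CPM (23.0 to 42.1), from 45 UMIs over 8 of 10 tumors, and Apcdd1 at 21.0 CPM (14.2 to 29.96), while Dkk3 and Sfrp1 had 0 UMIs there. For scale, all immune cells of tumors had Dkk2 at 0.706 ± 0.30 and Apcdd1 at 0.571 ± 0.27 CPM. Fibroblast-like cells had 0 UMIs of Dkk2, which allows up to 3.17 CPM. In the mucosa only 8 fibroblast-like cells were found, with 2 UMIs of Sfrp1, so that stromal cells of tumor and mucosa could not be compared.

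When fibroblast-, mural- and endothelial-like cells were pooled in the 6 tumors with at least 20 of them, 8 of 9 tested inhibitors were lower than in the epithelium, where 28.9% of 13067 genes were, and Dkk3 was higher, where 19.4% were. Of the 15 stress genes 10 were higher and 2 lower in these stromal-like cells, and their part was not tested. Dkk3 had a log2 fold change of 1.01 ± 0.385 (edgeR adjusted p = 0.0371) and was higher in 5 of 6 tumors, but the call was lost without COT1, COT2 or COT5, with log2 fold changes of 1.04, 0.68 and 0.81 (edgeR adjusted p = 0.0590, 0.143 and 0.145). Dkk2 and Apcdd1, the 2 genes of the endothelial-like cells, had the smallest deficits, −2.24 ± 0.28 and −1.58 ± 0.316 (edgeR adjusted p = 1.89e-06 and 0.000392). Notum was read as 1 UMI in the stromal-like cells and 12857 in the epithelium, a pooled ratio of 187-fold lower (33.5 to 7372; edgeR adjusted p = 2.71e-10).

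Immune cells were not free of these genes. T cell-like clusters had Axin2 at 15.3 ± 4.2 CPM in tumors (SD, n = 10) and 10.5 ± 4.0 CPM in mucosa (n = 3), above the 2.57 ± 0.75 CPM of all immune cells of tumors. Plasma cell-like clusters of tumors had Znrf3 at 11.4 ± 3.5 CPM, against 3.20 ± 1.1 CPM in all immune cells, and B cell-like clusters of mucosa had Rnf43 at 20.5 ± 13 CPM, beside a mean of 16.1 CPM in all mucosal epithelium. The 7 epithelial markers summed to 64.6 to 139.5 CPM in all immune cells of tumors and 179 to 1322 CPM in those of mucosa. Their part and the differences between immune types were not tested.

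Single cells were compared after thinning each to 2000 UMIs, since tumor epithelium was deeper than immune cells (median 11270 against 3578 UMIs). At least 1 of the 10 inhibitors was read in 77.7 ± 7.41% of cells of tumor epithelium (SD, n = 10, range 58.6 to 83.6%). The share was 16.8 ± 1.52% in the crypt progenitor-like and cycling cells of mucosa (n = 3). In the immune cells of tumors, given for scale, it was 2.68 ± 0.775%, which may include expression of their own. Before thinning the values were 93.8%, 64.1% and 6.17%. The lowest tumor, 58.6%, was above the highest mucosa library, 18.5%. Cells in which 3 or more inhibitors were read made up 28.8 ± 7.13% of tumor epithelium, 0.0516% of crypt cells and 0.00835% of immune cells. Thinning left out 673 cells of tumor epithelium with under 2000 UMIs and kept 12533, with 4731 crypt cells and 55872 immune cells.

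By gene, Nkd1 was read in 39.1 ± 8.63% of thinned cells of tumor epithelium, 0.549% of crypt cells and 0.520% of immune cells. Axin2 was read in 34.3 ± 3.38%, 8.39% and 0.644%, and Rnf43 in 26.5 ± 3.13%, 6.18% and 0.413%. The immune cells of the mucosa itself, 3500 thinned cells, had Nkd1 in 0, which limits cells with a UMI to 0.0857%, Axin2 in 0.956% and Rnf43 in 2.64%. Crypt cells were above both immune sets for Axin2 and Rnf43, and for Nkd1 they were above the immune cells of their own tissue and close to those of tumors. Wif1 was read in 28.6 ± 8.64%, 0.0309% and 0.218%, Notum in 16.5 ± 4.35%, 0.0819% and 0.122%, and Dkk2 in 14.8 ± 3.88%, 0% and 0.120%. For these 3, crypt cells lay below the immune cells of tumors, while the thinned immune cells of mucosa had none of the 3.

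Other genes of the pathway were counted from lists. Over all epithelial cells, where 33.7% of all genes were higher and 30.1% lower in tumors, 4 lists were read. Among 20 further genes listed as Wnt antagonists, 10 were tested and 6 were higher and 1 lower, with a median log2 fold change of 1.47 against 0.04 over all genes. The list holds Bambi and Lypd6, which are also known to promote the pathway. Igfbp4, a secreted protein that binds growth factors and can act on Wnt receptors, averaged 198 ± 57.6 CPM in tumors and 4.09 ± 2.89 CPM in mucosa (log2 fold change 5.34 ± 0.461). Bambi, a decoy receptor of the TGF-β family, averaged 37.4 ± 14.7 and 6.39 ± 1.61 CPM (2.31 ± 0.414), and Kremen1, a receptor for Dickkopf proteins, 8.50 ± 2.08 and 3.03 ± 0.552 CPM (1.22 ± 0.209). Nkd2, the relative of Nkd1, averaged 0.411 ± 0.152 against 0.101 ± 0.015 CPM (1.72 ± 0.362). Lypd6, a membrane-anchored protein that acts at LRP6, averaged 0.952 ± 0.687 CPM against 0.010 ± 0.009 CPM.

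Of 23 Wnt target genes, 22 were tested and 15 were higher and 2 lower in tumor epithelial cells, with a median of 1.31. Lef1, a partner of β-catenin at DNA, averaged 27.5 ± 9.35 CPM against 0.093 ± 0.050 CPM in mucosa (7.95 ± 0.577), and Sox17, an endoderm factor, 47.8 ± 27.8 against 0.004 CPM. Lgr6, an R-spondin receptor, averaged 2.82 ± 2.12 against 0.0044 CPM. Sox9, a factor of crypt and progenitor cells, had a log2 fold change of 0.57 ± 0.165 and Cd44, a surface receptor, of 0.57 ± 0.177. Cdx1, a factor of intestinal identity, was lower, at 81.1 ± 26.7 against 182 ± 17.2 CPM (−1.42 ± 0.243). Of the 18 genes of the destruction complex and the nuclear core, 13 were higher and 1 lower, with a median of 0.50. Tle3, a corepressor, had the largest fold named there, 1.901 ± 0.223, followed by Dvl1, a Dishevelled, at 1.204 ± 0.174 and Bcl9l, a coactivator of β-catenin, at 1.003 ± 0.159. Among the 13 genes that passed the threshold and did not overlap between tissues, the smallest folds were those of Dvl3 at 0.36 ± 0.119, Axin1 at 0.33 ± 0.105 and Apc. Apc itself differed by a fitted 0.22 ± 0.069, with both alleles counted together. Its levels before TMM scaling were 63.3 ± 5.02 against 45.5 ± 2.17 CPM. Of 16 receptors 6 were higher and 6 lower, shares near those of all genes, with a median of −0.13. Lrp5 was higher by 1.10 ± 0.188, Fzd10 by 2.96 ± 0.66 and Fzd6 by 0.81 ± 0.20, while Fzd9, Fzd3 and Fzd8 were lower, with log2 fold changes of −2.05 ± 0.397, −1.54 ± 0.301 and −1.24 ± 0.194.

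Against the crypt cells the lists gave 7 higher and 0 lower of 10 tested antagonists (median 2.07), 12 higher and 4 lower of 22 targets (0.85), 14 and 1 of 18 core genes (0.63) and 4 and 6 of 15 receptors (−0.29), beside 37.7% of genes higher, 31.2% lower and a median of 0.10 over all genes tested. Cd44, higher over all epithelial cells, had a log2 fold change of −0.17 ± 0.159 against crypt cells (edgeR adjusted p = 0.352). The members' median there was 7.31. The lists were drawn up with earlier results of these data known.

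Genes whose levels followed those of an inhibitor most closely were found by Pearson correlation over 33 points among 11131 genes that reached 20 CPM in at least 1 point. Each point is log2(m + 1), where m is the mean CPM over libraries of a cell class in tumors or in mucosa. Points of 1 tissue share their libraries and dissociation, and no p is given. Notum was closest to Ptprz1 (r = 0.980), Wif1 to Erich3 (0.918), Nkd1 to Cep112 (0.922) and Axin2 to Sp5 (0.875). Dkk2 was closest to Thbs2 (0.972) and Sox17 (0.969), and Apcdd1 to Sox17 (0.957) and to Dkk2 (0.956). Dkk3 was closest to Cdkn2a (0.816), the locus of p16, in which p16 and Arf are counted together. Cdkn2a was read at 23.5 to 84.8 CPM in the epithelial cells of the 10 tumors (median 45.9) and from 2 UMIs in those of mucosa. Rnf43 was closest to Smoc2 (0.889) and Znrf3 to Pla2g12a (0.848). Sfrp1 did not reach 20 CPM in these points, which hold no fibroblast-like class.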

How the data were processed

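The deposited files hold raw UMI counts per gene and barcode for each of 13 libraries. Per the labels and the submitters' processing notes, the authors made these counts with Cell Ranger 6.0.0 on mm10 (the study's methods name an earlier release). Barcodes with at least 500 UMIs, 200 genes and at most 25% mitochondrial UMIs were kept, and 10397 predicted doublets were removed. Cells were clustered by Leiden (leidenalg 0.10.2) on 30 principal components of 2000 variable genes in Python 3.11.15, with 91 Wnt genes held out, and classes were named by marker lists. UMIs were summed per library and class and tested with edgeR 4.0.16 (quasi-likelihood, TMM, Benjamini-Hochberg over all genes tested) in R 4.3.3, with DESeq2 1.42.0 as an alternative. Comparisons between tissues used no block. Comparisons within a tissue had the library as a block, and those of stromal-like, fibroblast-like, tuft-like, enteroendocrine-like, Paneth-like and Cxcl5-led cells were added after the data were seen. Libraries entered with at least 20 cells of each class, or 5 fibroblast-like cells. Members and lists were chosen with earlier results of these data known. Other genes named were, in each list, the 3 with the largest and the 3 with the lowest fold change among those past the threshold of 0.05 and not overlapping between tissues. The medians of fold changes given for the members do not move when genes with 3 or fewer UMIs in the lower group are set to the bound that 3 UMIs there would give. Tests were tried on simulated counts before use, and in the epithelial comparison 82.6% of genes changed by 1 on the log2 scale, among 14571 genes, were recovered. Intervals are exact at 95% and cover counting error only, and a count of 0 is given a limit of 3 UMIs. Tumor and mucosa of 1 mouse come from the same animal. Their deviations from the group means correlated at 0.205, 0.103 and 0.235 for mice A, B and C in epithelial cells, and a fit with the mouse as a block was run as an alternative.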

Additional observations from a re-analysis of the deposited data

Results flagged for a closer look

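Among 48 groups of 4 to 10 tumors checked, 10 held a tumor far from the others by Dixon's criterion. The criterion flags about 1 in 20 independent, normally distributed groups by chance. These groups share tumors and cells and some lie near 0, so that rate may not hold and no excess is claimed. In COT10, Notum over all cells was 9.63 CPM where the next tumor had 27.1 CPM, and Rnf43 in epithelial cells was 50.0 CPM where the next had 90.5 CPM. Both barely passed, with gaps of 0.4698 and 0.4664 of the range against a critical 0.466. COT5 was high for Sfrp1, at 26.7 CPM over all cells (next 7.89), 0.446 CPM in epithelial cells (next 0.175) and 2.28 CPM in Paneth-like cells, a single UMI where the other 9 tumors had 0. In absorptive- and goblet-like cells COT1 was high for Wif1 (30.6 CPM, next 3.65), Nkd1 (9.73 CPM, next 4.57), Axin2 (18.1 CPM, next 10.3) and Rnf43 (20.9 CPM, next 14.1), and COT4 for Dkk2 (4.18 CPM, next 1.39).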

How the results depend on the processing

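Between tissues, the calls of the 10 genes in epithelial cells (9 higher, 1 lower) were kept under every normalization, filter, clustering and left-out library tried. The exception was the setting with the tumor epithelium left out of both tissues. That setting gave 2590 genes higher and 2584 lower in place of 5233 and 4673, and took Axin2 from 2.57 to −0.056 on the log2 scale; it uses fewer cells by construction. With the mouse as a block, the pairing of tumors with the mucosa of their own animal, 9 genes were higher and 1 lower, 5358 genes were higher and 4846 lower in all, Notum was 8.61 and Sfrp1 −4.72, and no call of a member changed. Sfrp1 over all cells turned from 0.51 to −0.67 with DESeq2 and ranged from −0.69 (without COT5) to 0.84 with 1 library left out. For stromal-like cells the number of members higher, 1, became 0 with DESeq2, RLE size factors, Leiden resolution 2 or no library block, 2 with under 10% mitochondrial UMIs or with at least 1000 UMIs and 500 genes, and ranged from 0 to 2 with 1 library left out. For fibroblast-like cells DESeq2 called 1158 genes higher in place of 1820, and leaving out 1 library gave 730 (without COT5) to 1859; RLE factors moved the median of all genes by −0.265 there and DESeq2 by −0.229. In tuft-like cells the members lower, 2, became 1 with DESeq2, 0 without the library block and 1 without any library, and genes higher, 1971, ranged from 1098 (without Adj1) to 1645. Small folds there changed sign: Znrf3, −0.022, became 0.18 with DESeq2 and 0.022 without the library block and ranged from −0.57 to 0.85 (without Adj1), and Rnf43, −0.12, ranged from −0.45 to 0.041 (without Adj2). In enteroendocrine-like cells the members lower, 3, became 1 with DESeq2 and 0 to 3 with 1 library left out, and Znrf3, 0.23, ranged from −0.69 (without Adj2) to 0.68. Dkk2 in Cxcl5-led cells ranged around −0.10 from −0.22 to 0.046 (without COT2). Shares of cells with at least 1 member were 93.8%, 64.1% and 6.17% without thinning, for tumor epithelium, crypt cells and immune cells. Of the members' fold changes under all alternatives, 1344 kept direction and call, 23 lost the call and 9 changed sign. The cause of these changes was not tested. The planned fibroblast comparison with at least 20 cells a library could not be fitted, since 1 library had them, and was replaced. Dkk3 was not tested with the tumor epithelium left out. Depth limits the rare classes: 196 tuft-like, 255 enteroendocrine-like and 78 fibroblast-like cells.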
